A study of Drosophila melanogaster with 2 samples.

Results

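The genes described here encode the translation factors and aminoacyl-tRNA synthetases of Drosophila melanogaster. They were chosen by symbol alone, as every protein-coding gene of Ensembl release 115 whose symbol starts with eIF, eEF or eRF or joins an amino acid's 3-letter code to RS, with or without the ending -m for the mitochondrial enzyme. The rule gave 86 of 13968 protein-coding genes, with 44 initiation factors, 8 elongation factors, 2 release factors, 17 cytosolic synthetases and 15 mitochondrial synthetases. Binding of the CG32532 protein, a predicted homeodomain protein, had been mapped by chromatin immunoprecipitation and sequencing (ChIP-seq) in whole embryos aged 8 to 24 h, as the labels' source name has it; the age field gives both samples a far longer time and was set aside. The embryos carried a transgene that makes CG32532 fused to eGFP, and anti-GFP antibody was used for the precipitation. There were 2 biological replicates of this 1 group, no condition to compare, and the control that the labels name was not used here. Whole embryos mix all tissues, their sex was not collected, and binding of the tagged protein stands in for that of the untagged one, so the cells behind a peak cannot be told apart.

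Translation starts when initiation factors bring the initiator tRNA, the small ribosomal subunit and the capped mRNA together and release the joined ribosome at the start codon. Elongation factors then deliver charged tRNAs and move the ribosome along, and release factors free the finished chain at a stop codon. Synthetases attach each amino acid to its tRNA, in the cytosol or, as separate enzymes for most amino acids, in mitochondria. Most of these proteins are needed in every growing cell, and embryos draw on a maternal supply before their own genes replace it.

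The measurements are lists of peaks, which are stretches of DNA with more sequenced fragments than their surroundings. A peak's summit is its highest point. The set used for all counts, called the replicated set, holds 5325 peaks that passed an irreproducible discovery rate (IDR) threshold across both replicates, each with an IDR score of at least 830, which stands for an IDR of 0.01. Each peak went to the protein-coding gene whose transcription start site (TSS) was nearest to its summit, and to every gene where TSSs tied. The authors' signal value per peak has no stated scale. Within each replicate it was therefore divided by the median over the replicated peaks, 67.8 in replicate 1 and 116 in replicate 2, and is given as a multiple of the median peak. Distances carry a minus sign upstream of the TSS. The lists hold no read counts, so depth is unknown. Each replicate also has its own set, called on that replicate alone, with 3950 peaks for replicate 1 and 6850 for replicate 2, and a longer ranked list that has weaker peaks. The optimal set is the authors' less strict series-wide set, with 7717 peaks.

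By the nearest-TSS rule, the translation genes held a peak about as often as protein-coding genes in general, and 2 of the peaks assigned to them, at eIF6 and upstream of eEF1gamma, ranked 8 and 49 of the replicated set by pooled signal. Of the 86 genes, 23 (26.7%) were nearest to at least 1 replicated peak, against 3525 (25.2%) of all protein-coding genes. The exact 95% binomial interval of the translation genes' share, which covers counting error only, ran from 17.8% to 37.4% and held the value for all genes. In replicate 1's own set the share was 23.3% of translation genes against 21.0% of all genes, and in replicate 2's own set 32.6% against 29.3%. In the optimal set it was 31.4% against 32.1%. The own sets averaged 27.95% ± 6.58 for the translation genes and 25.15% ± 5.87 for all genes (SD, n = 2 replicates each). Both shares come from the same own sets, whose unequal lengths move them together, so these SDs do not measure the error of the gap, which had the same sign in both replicates.

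A second count asked whether a replicated summit lay within 500 bp of a gene's TSS, which counts both genes where they share a promoter. By this count 28 of 86 translation genes (32.6%, interval 22.8% to 43.5%) had a bound promoter, against 24.3% of all protein-coding genes. This interval held the value for all genes. The shares in the own sets were 30.2% of translation genes (interval 20.8% to 41.1%) against 20.1% of all genes in replicate 1, and 39.5% (29.2% to 50.7%) against 27.4% in replicate 2, with means of 34.85% ± 6.58 and 23.75% ± 5.16 (SD, n = 2 replicates each). In the optimal set 40.7% of translation genes (30.2% to 51.8%) had a summit within 500 bp, against 29.8% of all genes. The translation genes' share was thus higher in all 4 sets, and the interval lay above the value for all genes in the 2 own sets and the optimal set but not in the replicated set. This count can take in both genes of a head-to-head pair, which are described further on.

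**Figure D1:**
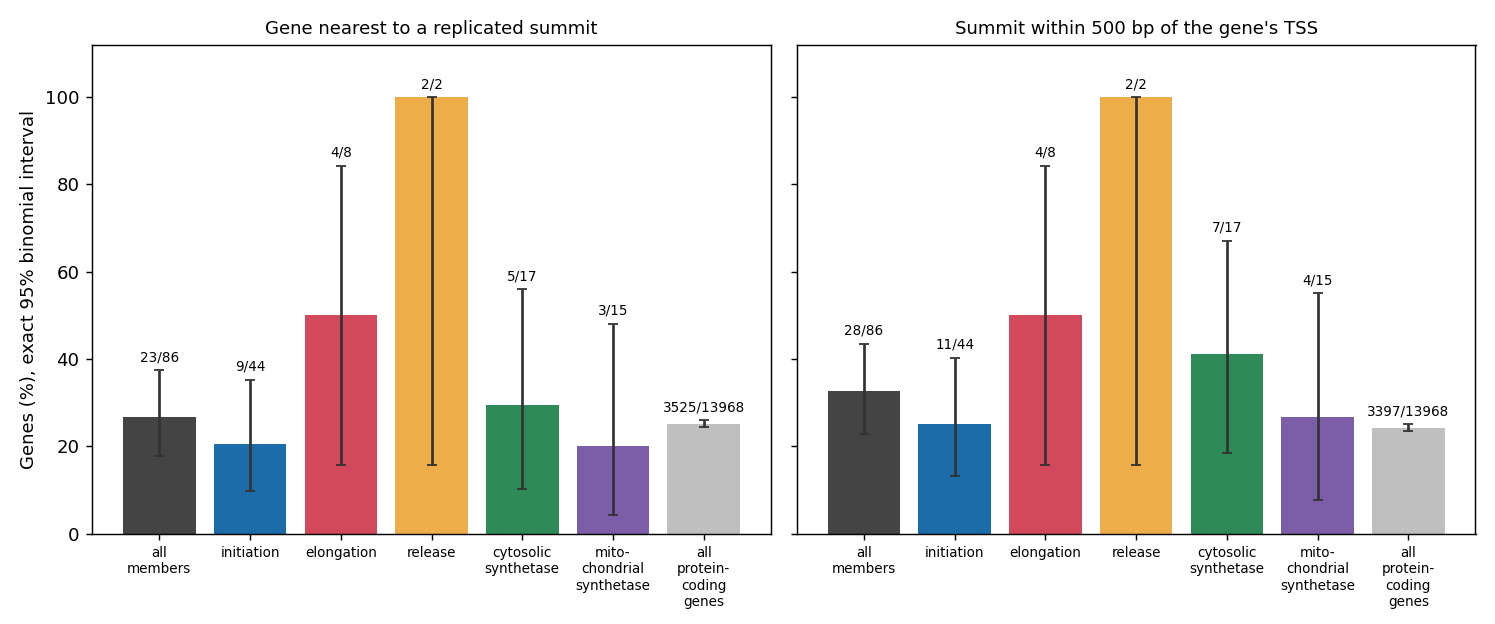
Bars give the percentage of genes nearest to a replicated summit (left panel) and with a replicated summit within 500 bp of a TSS (right panel), for all 86 translation genes ("all members"), each role and all protein-coding genes; whiskers are exact 95% binomial intervals and the fractions are gene counts. The intervals of every role are wide, from 15.7% to 84.3% for the 8 elongation factors, and hold the value for all protein-coding genes.

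By role, 9 of 44 initiation factors (20.5%), 4 of 8 elongation factors, both release factors, 5 of 17 cytosolic synthetases (29.4%) and 3 of 15 mitochondrial synthetases (20%) were nearest to a replicated peak, against 25.2% of all protein-coding genes. With a bound promoter were 11 initiation factors (25%), the same number of elongation and release factors as before, 7 cytosolic synthetases (41.2%) and 4 mitochondrial synthetases (26.7%), against 24.3% of all protein-coding genes. The order of the roles is not separated at these numbers of genes.

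The 23 genes held 31 peaks. Of these, 25 (80.6%) had their summit within 500 bp of the TSS they went to, against 53.4% of all replicated peaks, and 20 of the 25 (80%) lay upstream, against 78.7%. The median offset was -64 bp for the translation genes and -86 bp for all promoter peaks. The median of the mean signals was 1.29 times the median peak for the 31 peaks and 0.997 for all replicated peaks. This difference came mostly from replicate 1, where the 31 peaks had a median of 1.65, while in replicate 2 it was 0.988. The value 1.29 is that of eIF2A, whose 2 summits share the same peak in each replicate's list. By pooled signal the median rank was 2418 for the 31 peaks and 2663 for all replicated peaks. Of the 31, 11 (35.5%) were among the strongest 1331 replicated peaks, which are 25% of the set, and 23 (74.2%) were in both own sets, against 63% of all. The 31 are not independent, since a gene can hold several and neighbouring summits can share one broad peak in a replicate's list.

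**Figure D2:**
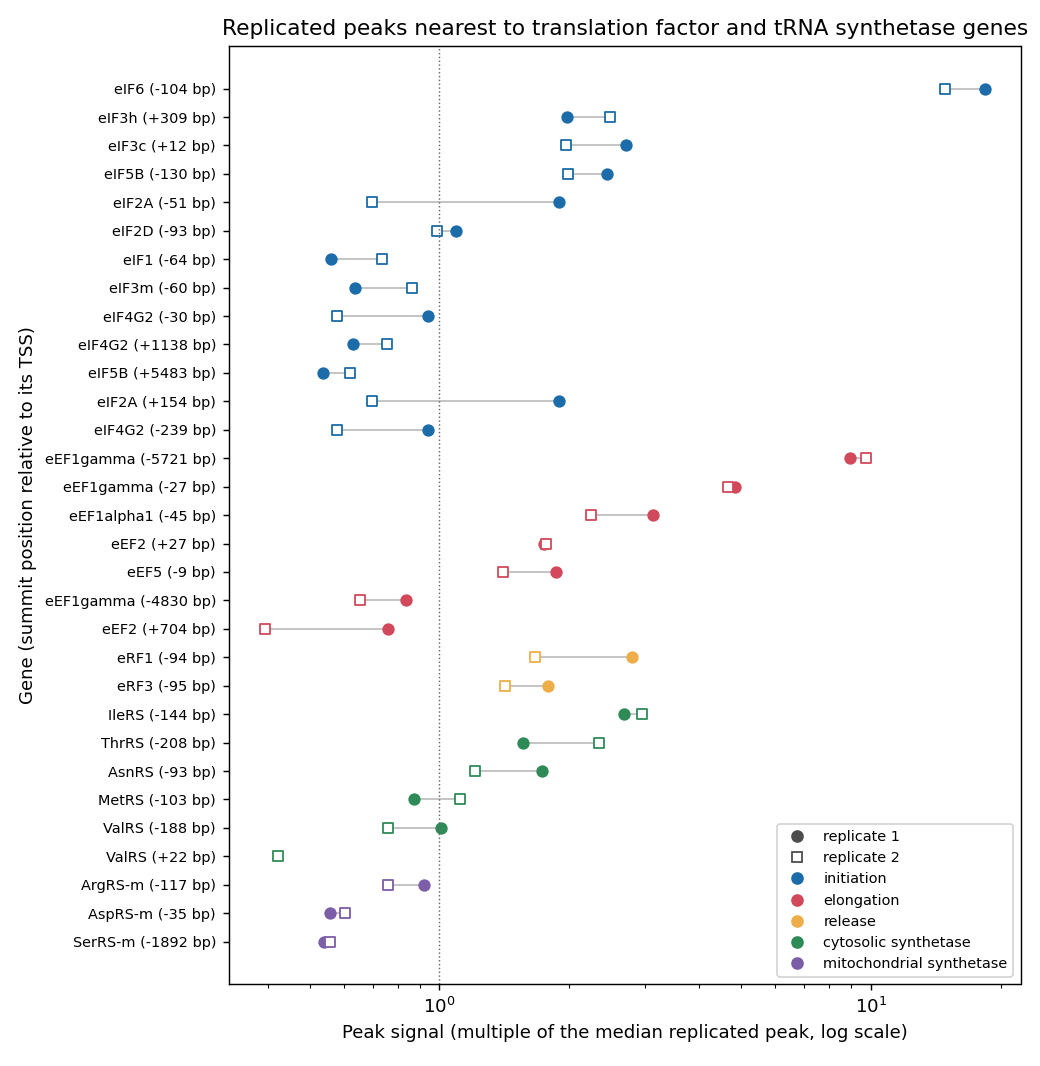
Each row is 1 of the 31 replicated peaks nearest to a translation gene, ordered by role and then by pooled signal, with filled circles for replicate 1 and open squares for replicate 2, as multiples of the median replicated peak on a log scale; the row label gives the summit's distance from the TSS. eIF6 stands at 18.4 and 14.9, and the 3 mitochondrial synthetase peaks all lie under 1.

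Among the initiation factors, eIF6 had the strongest promoter peak of all 86 genes. eIF6 binds the large ribosomal subunit, takes part in its maturation and keeps it from joining the small subunit too early. Its peak on 2R (summit at position 23850405, 104 bp upstream of the eIF6 TSS) had a signal of 1245 in replicate 1 and 1732 in replicate 2, which are 18.4 and 14.9 times the median peak (16.6 ± 2.45, SD, n = 2). It ranked 8 of 5325 by pooled signal. The summit also lies 75 bp from the TSS of the antisense RNA gene asRNA:CR45928 and inside the annotated body of ytr, so the position does not single out 1 gene. No other initiation factor had a replicated peak above 3 times the median in either replicate.

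The next initiation factors were subunits of eIF3, the large complex that holds the small subunit and its partners, and eIF5B, the GTPase that joins the ribosomal subunits. eIF3h had 1.98 times the median peak in replicate 1 and 2.49 in replicate 2, with the summit 309 bp downstream of its TSS and 63 bp separating that TSS from the TSS of senju. eIF3c had 2.71 and 1.96, with a summit 12 bp downstream of its TSS. eIF5B had 2.44 and 1.99 at 130 bp upstream of its nearest TSS, inside the annotated gene. It also had a weaker intronic peak of 0.538 and 0.622 at 5483 bp downstream. Ranks of the 3 strongest peaks of these genes ran from 857 to 909, and their replicates overlap one another, so no order among eIF3h, eIF3c and eIF5B can be given.

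The remaining initiation factors nearest to a peak lay near or under the median. eIF2A, an alternative carrier of initiator tRNA, had 1.89 in replicate 1 but 0.696 in replicate 2, the largest ratio between replicates of the 31 peaks. Its 2 summits, at -51 and 154 bp and both inside the annotated gene, matched the same peak in each replicate's list. eIF2D, which can also place tRNA on the small subunit, had 1.09 and 0.988 at 93 bp upstream. eIF3m had 0.637 and 0.864 at 60 bp upstream and was in replicate 2's own set only. All of these values sit within a range that most replicated peaks share.

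eIF4G2, a paralogue of the scaffold eIF4G that serves in the male germline of the fly, was nearest to 3 peaks although its better known relative eIF4G1 had none. The summits were at -30, -239 and 1138 bp from TSSs of eIF4G2, the first 2 matched 1 peak per replicate with 0.942 and 0.577, and the one at 1138 bp had 0.631 and 0.757. The gene shares its TSS with CG33111, so these peaks belong to both. eIF4G1, on chromosome 4, had no ranked peak within 500 bp of a TSS in either replicate. The 100 bp around the eIF4G2 promoter summit (dm6 chr3R:23819217-23819316, minus strand, read in the gene's direction) are shown because they hold a match to the fly promoter element called motif 7, searched by its core CATCNCTA and set in capitals.
eIF4G2 promoter: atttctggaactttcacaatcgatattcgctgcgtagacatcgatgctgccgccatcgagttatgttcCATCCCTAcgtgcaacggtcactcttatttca

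eIF1, which guards the choice of start codon, shares its promoter region with RpL28, a protein of the large ribosomal subunit, at a distance of 381 bp between the opposed TSSs. The peak nearest to eIF1, 64 bp upstream of it, had 0.56 in replicate 1 and 0.734 in replicate 2, and was in replicate 1's own set only and not in the optimal set. A stronger summit lay 316 bp upstream of eIF1, which is 65 bp upstream of RpL28, with 1.83 and 1.38. The windows of both summits are set side by side, read in the direction of eIF1, from chr3L:3222975-3223074 for the RpL28 side and chr3L:3223227-3223326 for the eIF1 side (dm6, plus strand). Capitals mark the DNA replication-related element (DRE) TATCGATA, a core promoter motif of many fly housekeeping genes.
RpL28 side: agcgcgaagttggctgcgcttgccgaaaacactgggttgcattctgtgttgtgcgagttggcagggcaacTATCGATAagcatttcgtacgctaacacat
eIF1 side: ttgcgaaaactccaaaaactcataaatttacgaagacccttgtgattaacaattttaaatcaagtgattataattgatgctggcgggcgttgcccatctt
The DRE and the stronger signal were on the RpL28 side.

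Few subunit genes of the multi-subunit complexes held a peak, and with so few genes no complex was separated from the 25.2% of all protein-coding genes. Of 16 eIF3 genes, 3 (exact interval 4.05% to 45.6%) were nearest to a replicated peak (eIF3c, eIF3h and eIF3m) and eIF3a, the largest scaffold subunit, also had a summit 46 bp upstream of its TSS that was nearer to CG1074, with 1.90 in replicate 1 and 1.13 in replicate 2. The other 12 were eIF3b, eIF3d1, eIF3d2, eIF3e, eIF3f1, eIF3f2, eIF3g1, eIF3g2, eIF3i, eIF3j, eIF3k and eIF3l, and none of them exceeded 0.619 at a TSS in either ranked list. Of the 5 eIF2B genes, which encode the nucleotide exchange factor of eIF2, eIF2Bdelta had a summit within 500 bp, with 0.955 and 0.682, that went to roh. eIF2Balpha, eIF2Bbeta, eIF2Bgamma and eIF2Bepsilon had none.

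The 3 subunits of eIF2, the GTPase complex that carries initiator tRNA, had no replicated summit within 500 bp, for which the exact interval reaches 70.8%, but all 3 had one in the optimal set, where 29.8% of all protein-coding genes had one. At their TSSs the ranked lists gave eIF2gamma 1.33 in replicate 1 and 0.259 in replicate 2, eIF2beta 0.336 and 0.969, and eIF2alpha 0.401 and 0.49. In eIF2gamma and eIF2beta the replicates differed in opposite directions. Each had a summit within 500 bp in the own set of the replicate where it was higher. The values of eIF2gamma are also those at the TSSs of Set and Su(var)3-9. In replicate 1's own set and the optimal set eIF2gamma was not the gene nearest to the summit. Among eIF3 paralogues, eIF3f1 had 0.609 and eIF3f2 0.139 in replicate 2 alone, eIF3d1 had 0.418 in replicate 2 alone and eIF3d2 0.575 in replicate 1 alone, and eIF3g1 had 0.137 and 0.281 where eIF3g2 had no ranked peak. With values missing in a replicate, these pairs could not be compared further.

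The eIF4 group binds the mRNA cap and unwinds the leader. None of the 7 eIF4E family genes was nearest to a replicated peak or had one within 500 bp, and the exact interval of 0 of 7 reaches 41%, above the 25.2% and 24.3% of all protein-coding genes. eIF4E1, the main cap-binding protein, had 0.517 and 0.387 at its TSS, eIF4E4 had 0.232 and 0.163, eIF4E6 had 0.286 and 0.271, eIF4E3 had 0.264 and eIF4E7 0.0387 in replicate 1 alone, and eIF4E5 had no ranked peak. The helicase eIF4A had 0.6 and 0.327, its partner eIF4B had no ranked peak, and eIF4H1 and eIF4H2 stayed at or under 0.558. The other initiation factors without a replicated peak were eIF1A, with 0.324 and 0.58, and eIF5, with 0.31 in replicate 2 alone.

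The seventh eIF4E family gene, eIF4EHP, was the exception that the thresholded sets do not show. eIF4EHP is a cap-binding relative of eIF4E that represses translation of particular mRNAs in the fly embryo. The ranked series list held a peak 253 bp upstream of its TSS (dm6 chr3R:24108980-24109404) with the highest IDR score, 1000, and a pooled signal of 1942, which would rank 33 among the replicated peaks. It stood at 8.06 times the median peak in replicate 1 and 11.9 in replicate 2 (9.98 ± 2.72, SD, n = 2). Yet it was in neither the replicated set, the optimal set nor either own set. It is 1 of 133 ranked peaks that passed the score but were in neither series-wide set, and the reason was not tested. Because of that, eIF4EHP is not among the bound genes in any count given here. The summit is nearer to CG18428, 123 bp upstream of that gene's TSS. Its summit window (chr3R:24109163-24109262, minus strand) is shown because it holds the homeodomain-type sequence TAATTA at 2 places, in capitals, in DNA with 16% G and C.
eIF4EHP upstream: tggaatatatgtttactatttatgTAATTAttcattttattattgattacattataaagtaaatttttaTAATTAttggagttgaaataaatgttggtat

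**Figure D3:**
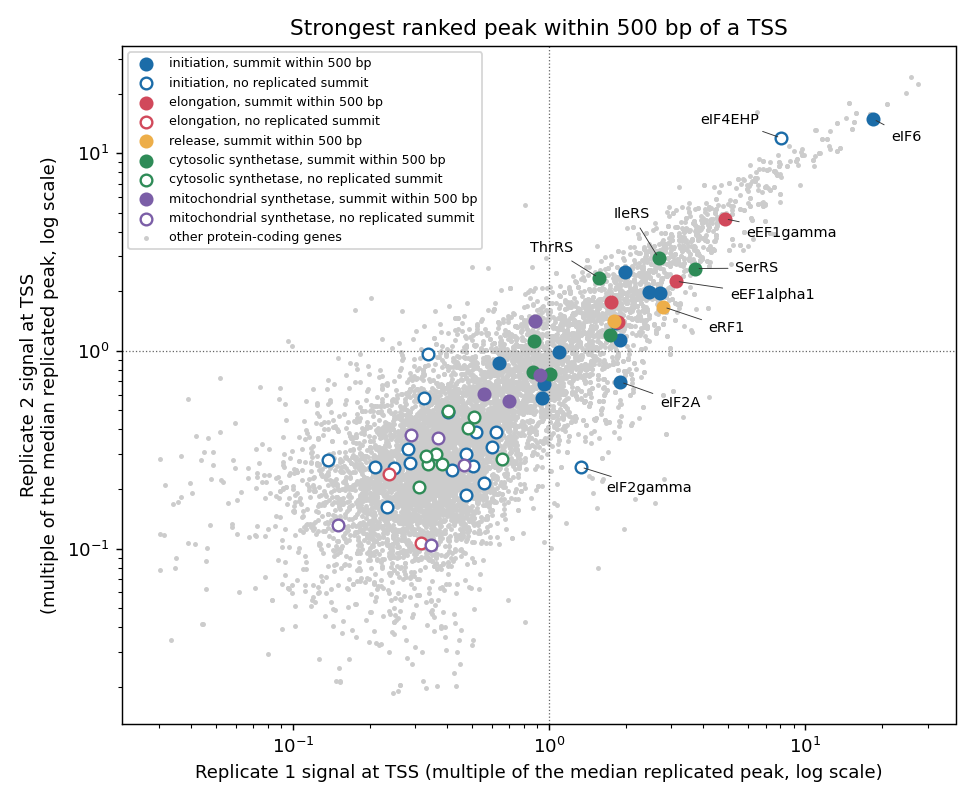
Each point is a gene, placed by the strongest ranked peak within 500 bp of a TSS in replicate 1 and replicate 2, as multiples of the median replicated peak on log axes; 63 translation genes and the grey protein-coding genes with a ranked peak in both lists are drawn, filled where a replicated summit lies within 500 bp. eIF6, eIF4EHP and eEF1gamma lie highest among the coloured points, eIF4EHP as an open circle, and eIF2gamma lies off the diagonal at 1.33 and 0.259.

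Of the 8 elongation factors, eEF1gamma, eEF1alpha1, eEF2 and eEF5 held replicated promoter peaks. eEF1gamma, the structural subunit of the exchange complex that recharges eEF1alpha, had a promoter peak 27 bp upstream of its TSS with 4.85 times the median in replicate 1 and 4.65 in replicate 2 (4.75 ± 0.135, SD, n = 2), at rank 203. eEF1alpha1, the GTPase that delivers charged tRNA, had 3.12 and 2.25 at 45 bp upstream of its nearest TSS, inside the annotated gene. eEF2, the GTPase that moves the ribosome by a codon, had 1.74 and 1.77 at 27 bp downstream. eEF5, the fly form of the factor known as eIF5A, had 1.86 and 1.41 at 9 bp upstream. All 4 were above the median in both replicates and in both own sets. eEF2 had a second peak in its coding exon, 704 bp downstream, with 0.761 and 0.393, in neither own set.

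The other 4 elongation genes had low values. eEF1alpha2, the paralogue of eEF1alpha1, had 0.237 and 0.239 at its TSS, far under the 3.12 and 2.25 of eEF1alpha1. eEFSec, the factor for selenocysteine, had 0.317 and 0.106. eEF1beta, an exchange subunit, had 0.414 in replicate 2 alone and lay within 500 bp of an optimal-set summit, and eEF1delta had no ranked peak. In the replicated set, the gene of the structural exchange subunit had a promoter peak and those of the catalytic subunits had none.

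eEF1gamma was also assigned the second strongest peak of the list, but that peak lies at another gene. Its summit was 5721 bp upstream of the eEF1gamma TSS and 111 bp upstream of the TSS of lncRNA:CR31044, the noncoding transcript that spans the microRNA genes mir-279 and mir-996. The values were 8.96 in replicate 1 and 9.76 in replicate 2 (9.36 ± 0.563, SD, n = 2), rank 49, so it was stronger than the eEF1gamma promoter peak in both replicates. A weaker peak, with 0.838 and 0.655, lay 4830 bp upstream, inside lncRNA:CR31044 and 243 bp from mir-279. The nearest-TSS rule counts protein-coding genes only, and both upstream peaks reached eEF1gamma through it.

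The promoter window and the strong upstream window are set side by side because both are assigned to 1 gene. They are 100 bp each around the summits, at dm6 chr3R:29220095-29220194 and chr3R:29214401-29214500, plus strand, with the DRE in capitals.
eEF1gamma promoter: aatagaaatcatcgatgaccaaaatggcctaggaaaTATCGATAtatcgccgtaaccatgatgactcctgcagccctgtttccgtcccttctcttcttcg
lncRNA:CR31044 upstream: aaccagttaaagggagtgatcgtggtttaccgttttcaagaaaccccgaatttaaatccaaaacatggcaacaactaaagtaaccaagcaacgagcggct
The DRE was in the promoter window. None of the 8 motifs searched was in the upstream window, although that peak was the stronger one.

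**Figure D4:**
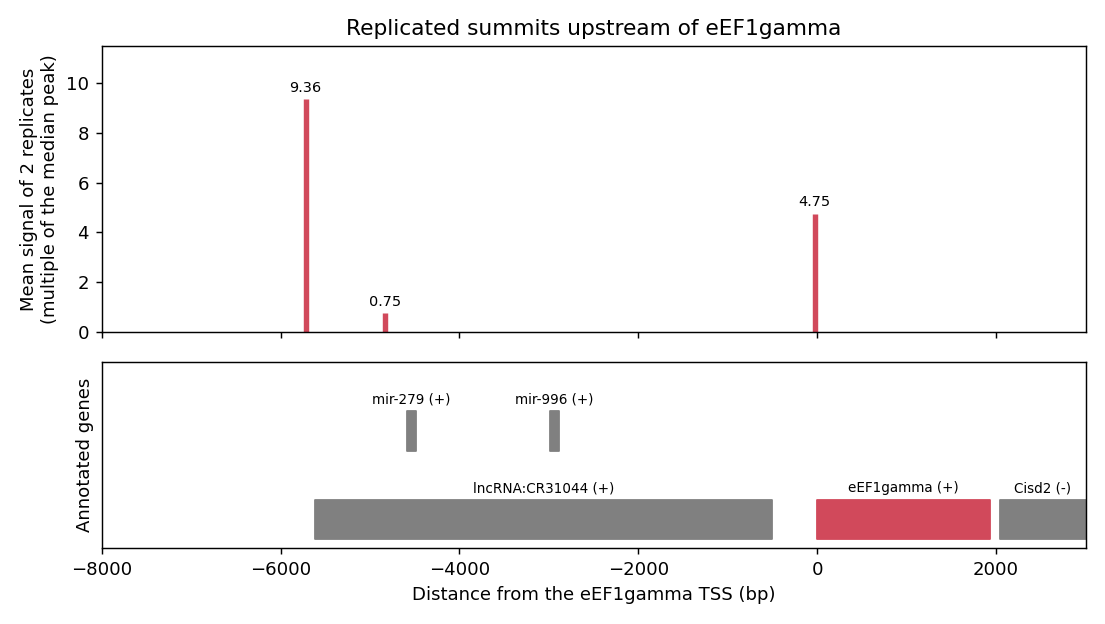
The upper panel gives the 3 replicated summits assigned to eEF1gamma, with mean signals of 9.36, 0.746 and 4.75 times the median peak as bar heights, against distance from the eEF1gamma TSS in bp; the lower panel gives the annotated genes with their strands. The strongest summit lies just before the start of lncRNA:CR31044 and the right-hand one at the start of eEF1gamma.

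Both release factors had a replicated promoter peak, and each is head to head with another gene. eRF1, which reads the stop codons, had 2.80 in replicate 1 and 1.67 in replicate 2 (2.23 ± 0.798, SD, n = 2) at 94 bp upstream, with the TSS of Rbbp5 413 bp away. eRF3, the GTPase that works with eRF1, had 1.79 and 1.42 (1.60 ± 0.265, SD, n = 2) at 95 bp upstream, with the TSS of the splicing factor gene SC35 414 bp away. The eRF1 summit lies between its gene pair, while the eRF3 summit lies inside the annotated SC35 gene. Both were higher in replicate 1 and above the median in both replicates. The SDs are large enough that eRF1 and eRF3 are not separated. Their summit windows sit at almost the same place in promoters of almost the same length but differ in base content, with 38% G and C for eRF1 (chr3L:20348211-20348310, plus strand) and 16% for eRF3 (chr2L:12434307-12434406, plus strand). Capitals mark TAATTA.
eRF1 promoter: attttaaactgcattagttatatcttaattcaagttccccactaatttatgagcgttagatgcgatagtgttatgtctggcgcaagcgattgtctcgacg
eRF3 promoter: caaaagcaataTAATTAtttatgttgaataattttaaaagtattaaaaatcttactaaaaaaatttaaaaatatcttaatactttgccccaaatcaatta

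Among the cytosolic synthetases, 5 were nearest to a replicated peak and 2 more shared a bound promoter. IleRS was the strongest of the 5, with 2.67 in replicate 1 and 2.95 in replicate 2 (2.81 ± 0.192, SD, n = 2) at 144 bp upstream, in the 470 bp that separate it from Hem, a gene of the actin-regulating Scar complex. ThrRS had 1.56 and 2.34 at 208 bp upstream, opposite Patsas. AsnRS had 1.73 and 1.21 at 93 bp upstream, opposite DCTN6-p27. These 3 were above the median in both replicates. MetRS had 0.874 and 1.12 at 103 bp upstream, opposite CG15084.

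ValRS was nearest to a peak 188 bp upstream, with 1.01 and 0.76, and to a shoulder 22 bp downstream with no value in replicate 1 and 0.422 in replicate 2. Neither was in the optimal set, and a summit 390 bp upstream of ValRS that overlaps the same replicate peaks was nearer to Kdm4B, a histone demethylase gene. SerRS had the highest mean promoter value of the cytosolic synthetases, though IleRS was higher in replicate 2 and the 2 genes are not separated by their spread. It had 3.73 in replicate 1 and 2.61 in replicate 2 (3.17 ± 0.793, SD, n = 2, rank 489), but its TSS is 8 bp from that of CG17260, and the summit, 14 bp upstream of SerRS, is nearer to CG17260. AspRS likewise had 0.864 and 0.782 at a summit that went to Nmda1.

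The IleRS and ThrRS windows, from chr3L:22288471-22288570 and chr2L:12103493-12103592 (dm6, plus strand), are printed as examples of strong synthetase promoters. Neither printed window of 100 bp held any of the 8 motifs. In the wider 200-bp windows described further on, the IleRS summit window held CAGCTG and the IleRS promoter window held a DRE.
IleRS promoter: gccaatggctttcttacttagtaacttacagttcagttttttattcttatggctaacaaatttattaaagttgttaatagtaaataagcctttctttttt
ThrRS promoter: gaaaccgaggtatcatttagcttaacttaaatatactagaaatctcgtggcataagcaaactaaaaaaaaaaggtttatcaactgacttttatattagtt
Both are rich in A and T, with 26% and 28% G and C.

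The 10 cytosolic synthetases without a bound promoter were AlaRS, ArgRS, CysRS, GlnRS, GlyRS, HisRS, LeuRS, LysRS, TrpRS and TyrRS. ArgRS had 1.24 in replicate 2, where it was in the own set, and no ranked peak in replicate 1. The other 9 had values in both replicates between 0.204 for HisRS and 0.657 for GlyRS. CysRS was within 500 bp of an optimal-set summit, with 0.509 and 0.461. Those 9 lay under the median peak in both replicates.

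Mitochondrial synthetases had the weakest peaks, and none of the 15 exceeded the median in both replicates at its TSS. ArgRS-m had 0.922 and 0.758 at 117 bp upstream, opposite CG17816. AspRS-m had 0.557 and 0.605 at 35 bp upstream and was in replicate 2's own set only. SerRS-m was assigned a peak 1892 bp upstream, in a coding exon of Nagk, with 0.539 and 0.558, in no own set and not in the optimal set. Without replicate 2, that is in replicate 1's own set, 1 mitochondrial synthetase was nearest to a peak in place of 3 (6.67%, against 21% of all protein-coding genes). Without replicate 1 there were 2 (13.3%, against 29.3%). The exact intervals, 0.169% to 31.9% and 1.66% to 40.5%, held these values for all genes. By the count within 500 bp, 4 of 15 (26.7%) had a bound promoter in the replicated, optimal and replicate 2's own sets. Of all genes, 24.3%, 29.8% and 27.4% did in these sets. In replicate 1's own set the count within 500 bp was 2 (13.3%, against 20.1%).

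ProRS-m and CysRS-m had summits within 500 bp that went to CG42304 and O-fut1. ProRS-m had 0.88 in replicate 1 and 1.41 in replicate 2 at 139 bp upstream, and CysRS-m had 0.695 and 0.559. The remaining 10 were AlaRS-m, AsnRS-m, GluRS-m, IleRS-m, LeuRS-m, MetRS-m, PheRS-m, TrpRS-m, TyrRS-m and ValRS-m. IleRS-m, MetRS-m and ValRS-m had no ranked peak in either replicate, and the highest value of the 10 was 0.525, for PheRS-m in replicate 2. For 6 amino acids both enzymes had values in both replicates, and the cytosolic one had the higher mean in 4, the exceptions being CysRS with 0.485 against 0.627 for CysRS-m and LeuRS with 0.311 against 0.365 for LeuRS-m. The AspRS-m window (chr2L:16826993-16827092, plus strand) was the only one of the 31 with the promoter element motif 1, GGTCACACT, and it also held TAATTA; both are in capitals.
AspRS-m promoter: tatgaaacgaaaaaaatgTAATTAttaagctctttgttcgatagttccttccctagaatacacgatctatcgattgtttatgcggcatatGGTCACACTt

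Head-to-head gene pairs were common among the translation genes. A gene was called head to head where the TSS of an opposed protein-coding gene lay within 1000 bp, and 50 of 86 translation genes (58.1%) were, against 36.2% of all protein-coding genes. Of the 50, 21 (42%) had a summit within 500 bp, against 41.5% of all head-to-head genes. Of the other 36, 7 (19.4%) had one, against 14.6% of all other genes. This split was made in the replicated set only, not in the own sets or the optimal set. Whether the larger share of head-to-head genes bears on the 32.6% against 24.3% of the pooled count was not tested. The 7 bound without a head-to-head neighbour were eIF6, eEF1gamma, eEF2, eIF2A, eIF2D, eIF4G2 and AspRS-m.

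**Figure D5:**
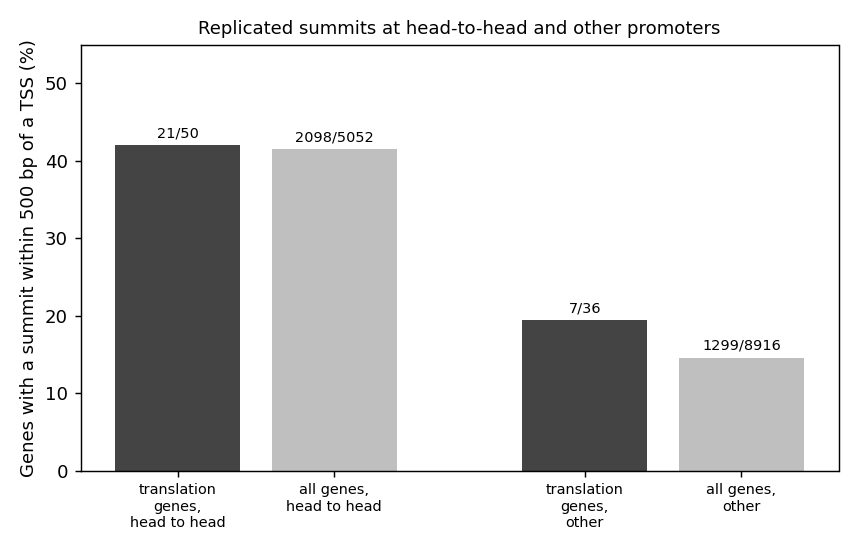
Bars give the percentage of genes with a replicated summit within 500 bp of a TSS, for translation genes (dark) beside all protein-coding genes (grey), split by whether an opposed protein-coding TSS lies within 1000 bp; fractions are gene counts. Dark and grey bars stand at 42% and 41.5% for head-to-head genes and at 19.4% and 14.6% for the other genes.

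By chromosome, the translation genes nearest to a peak of the replicated set lay on the large autosomal arms. On 2L 6 of 12 were nearest to a replicated peak, against 24.8% of all protein-coding genes on that arm, and on 2R 7 of 21, against 24.3%. On 3L it was 5 of 22, against 26%, and on 3R 5 of 20, against 24.3%. None of the 10 on X was (eIF2alpha, eIF2Bbeta, eIF2Bepsilon, eIF3g1, eIF4E7, eIF4H1, eIF5, ArgRS, HisRS and LysRS), against 28.5% of all protein-coding genes on X. The exact 95% interval of 0 of 10 reaches 30.8%, so the 2 values are not separated at this number of genes. In other sets X was not empty. On X, eIF2alpha and HisRS were nearest to an optimal-set peak, and eIF2alpha, HisRS and eIF4H1 to a peak of replicate 2's own set. ArgRS had a summit within 500 bp in replicate 2's own set.

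Sequence at the 31 summits was scanned in 200-bp windows for 8 motifs on both strands. The DRE was in 4 windows (12.9%, exact interval 3.63% to 29.8%), those of eEF1gamma, eIF2A, eIF6 and eRF1, against 4.51% of all replicated peaks. In 100-bp windows the share was 6.45%. In 200-bp windows centred 100 bp upstream of the most upstream TSS, the DRE was in 16 of 86 translation gene promoters (18.6%), against 7.3% of all promoters. Of those 16, 5 (31.2%) had a summit within 500 bp, namely IleRS, eEF1gamma, eIF3a, eIF6 and eRF1, against 23 of the 70 without it (32.9%). Among all protein-coding genes the values were 37.5% with the DRE and 23.3% without. In the replicated set the shares of translation genes with and without a DRE in the promoter were thus close. With 16 genes and no interval made, these counts cannot tell whether translation genes differ from all genes in this. The 11 with a DRE and no such summit included eIF4A, eIF2alpha, eIF2gamma, eIF3f1, AlaRS, ArgRS and TrpRS. Of the 11, AlaRS, ArgRS, eIF2alpha and eIF3f1 had a summit within 500 bp in replicate 2's own set. In replicate 1's own set eIF2gamma had one. The split by DRE was not made in the own sets or the optimal set.

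TAATTA was in 3 of the 31 windows (9.68%), those of AspRS-m, eIF1 and eRF3, against 15.2% of all peaks. In the promoter windows TAATTA was in 15 of 86 translation genes (17.4%) and 15.4% of all genes. A paired form, with TAAT facing ATTA across a spacer of 3 bases, was in none, against 2.61% of all peaks. In the promoter windows the paired form was in 1.16% of translation genes and 2.31% of all genes. GAGAG, the GAGA factor type of repeat, was in 2 (6.45%), those of eIF3c and eIF5B, against 25.2% of all peaks. In the promoter windows GAGAG was in 11.6% of translation genes and 22.1% of all genes. The Myc-type E box CACGTG was in none, against 2.14% of all peaks. In the promoter windows CACGTG was in 4.65% of translation genes and 2.22% of all genes. For a count of 0 in 31 the exact interval reaches 11.2%, and the intervals of TAATTA, from 2.04% to 25.8%, hold the value for all peaks, while that of GAGAG, from 0.791% to 21.4%, does not. The GAGAG share was 13% without replicate 2 and 13.9% without replicate 1, with no share of all peaks computed for those sets. GAGAG was the only motif searched whose interval missed the value for all peaks. The interval treats the 31 windows, which come from 23 genes, as independent. Their summits also lay within 500 bp of the TSS more often than those of all peaks (80.6% against 53.4%). CAGCTG was in 4 windows (12.9%) against 9.63% of all peaks, and in 3.23% of 100-bp windows. CATCNCTA was in 2 (6.45%), those of eIF3c and eIF4G2, against 5.28%. GGTCACACT was in 1 (3.23%) against 2.01%. Mean G and C content was 38.8% ± 9.85 in the 31 windows and 38.6% ± 8.88 in all 5325 (SD over windows). A match is a run of letters and not a site of binding.

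Further genes of translation lie outside the symbol rule. Of 28 such genes, 11 (39.3%, exact interval 21.5% to 59.4%) were nearest to a replicated peak, against 25.2% of all protein-coding genes. In the optimal set it was 15 (53.6%, interval 33.9% to 72.5%), against 32.1% of all. Without replicate 2 the count was 7 (25%, against 21% of all), and without replicate 1 it was 9 (32.1%, against 29.3%). Thor, the fly 4E-BP that holds eIF4E, had 2.17 in replicate 1 and 1.46 in replicate 2 at 34 bp downstream. pAbp, the poly(A)-binding protein, had 2.97 and 2.24 at 468 bp downstream. beta-PheRS had 2.19 and 1.20 at 4 bp upstream, while alpha-PheRS, the other subunit of the same enzyme, had 0.416 and 0.603 and no replicated peak. The others were pelo and HBS1, which rescue stalled ribosomes, pix, which recycles ribosomes, AIMP1, the eIF2 kinase PEK, Paip2, NAT1 and mEFTu1. GluProRS, the joint enzyme for glutamate and proline, had 4.37 and 3.28 at its TSS from a summit that went to a neighbour. The 26.7% of translation genes nearest to a replicated peak stand beside 67 of 92 cytoplasmic ribosomal protein genes (72.8%) and 19 of 73 mitochondrial ribosomal protein genes (26%). No test was made between these lists.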

How the data were processed

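ChIP-seq peaks of 2 biological replicates of CG32532-eGFP embryos were deposited as peak lists on dm6, per the labels; chromatin was sonicated. For the aligner, the peak caller and the versions of both, the sources used here give no name. Per the file headers, the lists were ranked and thresholded by IDR. The score is the authors' scaled IDR, up to 1000, and the signal is the strength of a peak deposited by the authors, on no stated scale. Lists of a replicate were called on that replicate alone, and series lists on both pooled. Depth is unknown.

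The members, lists, motifs and counts were chosen with earlier results of these data known. Peaks were assigned to Ensembl release 115 TSSs (summit position counted from 1). A replicate's signal is that of the strongest overlapping ranked peak, divided by the replicate's median over the 5279 peaks found in both ranked lists. All transcripts' TSSs of a gene were used. Sequences came from the RefSeq FASTA of the same assembly, and windows with over 30 bases of untranslated region or on 2R are not printed. Of 32 further translation symbols, 28 matched. No test was made, since there is 1 group and lists are described by counts; intervals are exact (Clopper-Pearson). Every gene is named in its class, with full values for the strongest of each class, those with several peaks and the 5 strongest without an assigned peak. Alternatives were the optimal set, each replicate left out (the other's own set), the strongest 2662 peaks, the 3355 peaks in both own sets, other distances, overlaps and windows, and, chosen after seeing the data, 1 gene per tied peak. Assignment was tested on simulated data. Python 3.11.15, numpy 2.4.6, pandas 2.3.3, scipy 1.17.1 and matplotlib 3.10.9 were used.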

Additional observations from a re-analysis of the deposited data

How the results depend on the processing

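Over 17 results and 92 alternatives, 82 values stayed within 1.5 times the main count, or within the interval or spread of the main value. The count of translation genes nearest to a peak (23) was 27 in the optimal set and 22 with 1 gene per tied peak. It was 20 to 28 with either replicate left out (23.3% to 32.6%, against 21% to 29.3% of all protein-coding genes). For the strongest 2662 peaks it was 16 (18.6%, against 15.3%), and for peaks in both own sets 19 (22.1%, against 18.3%). Mitochondrial synthetases nearest to a peak (3) numbered 1 to 2 with either replicate left out (6.67% to 13.3%, against 21% to 29.3%). The exact intervals, 0.169% to 31.9% and 1.66% to 40.5%, held the values for all protein-coding genes. There were 0 among the strongest 2662 peaks, against 15.3% of all protein-coding genes. Among peaks in both own sets there was 1 (6.67%, against 18.3%). The 28 further translation genes (11 nearest) gave 15 in the optimal set and 7 to 9 with either replicate left out. Among the strongest 2662 peaks they gave 5 (17.9%, against 15.3% of all protein-coding genes). Among peaks in both own sets they also gave 5 (17.9%, against 18.3%), so their higher share in the replicated set was not seen there. The share of motif 1 (3.23%) was 0% to 5.56% with either replicate left out, 0% among the strongest 2662 peaks and 0% in both own sets, and that of CAGCTG (12.9%) was 3.23% in 100-bp windows. That of GAGAG (6.45%) was 13% to 13.9% with either replicate left out. The cause was not tested beyond the smaller sets of peaks these alternatives use. No paired analysis was possible because there is 1 group. With 2 replicates, no read depth and a transgene in whole embryos, small differences between single genes were not resolved, and a gene without a replicated peak was not shown to be unbound.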
